A study of Mus musculus with 12 samples.

Results

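The Wnt ligands, receptors and modulators of the spinal cord were followed as 53 genes of the 18194 that could be named from a probe paired with 1 gene. Members were genes whose symbol starts with Wnt, Fzd, Rspo, Sfrp or Dkk and then a digit, together with Frzb, Wif1, Lrp5, Lrp6, Ctnnb1, Axin1, Axin2, Lef1, Tcf7l1, Tcf7l2 and Znrf3. Each gene was read from its probe of highest mean signal over the 12 arrays. Tcf7 had no probe paired with it alone, and Fzd10os, a transcript from the strand opposite to Fzd10, carries a symbol that meets the rule. The cords of young and aged mice, each either intact or injured, made 4 groups of 3 mice with 1 array per mouse. The mice were female, of the strain C57BL/6 by the labels and C57BL/6J by the methods of the study, the young ones 2 to 3 months old and the aged ones 15 to 18 months old. Injured mice had a contusion of the cord at the Th9 level after a laminectomy and were perfused 9 days later, and intact mice were naive, so that the effects of the operation and of the contusion cannot be told apart. The arrays addressed how age alters the response of the cord to spinal cord injury (SCI) before any graft. Because a Th9 segment holds many cell types, fewer cells of a type and less RNA per cell cannot be told apart in these signals.

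Wnt proteins are secreted lipid-modified ligands that bind Frizzled receptors and the co-receptors Lrp5 and Lrp6. In the canonical branch this stops the degradation of β-catenin, which then acts with TCF and LEF factors in the nucleus, and in other branches it alters the cytoskeleton and the polarity of cells. R-spondins keep Frizzled receptors at the surface by drawing off the ubiquitin ligases Znrf3 and Rnf43, whereas the secreted frizzled-related proteins, Wif1 and the Dickkopf proteins bind the ligands or the co-receptors outside the cell. In the spinal cord the pathway is known for dorsal patterning, the guidance of ascending and descending axons and the timing of oligodendrocyte maturation.

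The signals were MAS 5.0 intensities on a linear scale, scaled to a trimmed mean of 100, and 35.0% to 36.7% of probes on each array exceeded 50, which the study took as its cutoff. Signals of different genes come from different probes, so they were compared only between groups. The labelled tissue was checked against marker genes. In intact cord the 7 neuronal markers had summed signals of 17061 to 17979 per array, although Chat, which marks cholinergic neurons, was under 50 in every group. After SCI this sum was 6262 to 9627 in young and 1299 to 8983 in aged mice, the lowest value being that of aged injured replicate 1, which stood apart. The sums of 6 astrocyte markers were 14239 to 16015 in young and 7456 to 11974 in aged injured cord, those of 7 markers of fibroblasts and meninges were 11412 to 15501 and 10714.0 to 14524, and those of 6 markers of microglia and macrophages were 11170.3 to 14607 and 13666 to 15930.4.

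Most members were dim. Of the 53 genes, 29 had a mean signal of 50 or less in each of the 4 groups and were not tested: 15 of 19 ligands, 6 of 12 receptors, 2 of the 5 genes formed by the R-spondins and Znrf3, 4 of 10 secreted inhibitors, 1 of 6 intracellular members and Fzd10os. The untested ligands were Wnt1, Wnt2, Wnt2b, Wnt3, Wnt3a, Wnt5b, Wnt7a, Wnt7b, Wnt8a, Wnt8b, Wnt9a, Wnt9b, Wnt10a, Wnt10b and Wnt11, with group means of 0.967 to 46.2. The untested receptors were Fzd4, Fzd5, Fzd8, Fzd9, Fzd10 and Lrp5, with group means of 1.47 to 43.6. Rspo1, Rspo4, Sfrp2, Sfrp5, Dkk1 and Dkk4 were also under the cutoff, as was Lef1, a partner of β-catenin in the nucleus, with group means of 21.5 to 33.9. A signal under the cutoff does not show that a gene is silent in the cord. The other 24 members were tested among 10511 genes with limma, which sets each difference of log2 signals against the spread between mice. Wnt16, Tcf7l1, Dkk2 and Wif1 passed the cutoff through their signal in young injured cord alone, so that the counts and medians below describe the genes tested and support nothing by themselves.

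SCI in young mice was followed by higher signals of all 4 ligands tested, of 5 of 6 receptors and of the inhibitors Wif1, Dkk2 and Sfrp4, and by lower signals of the inhibitors Frzb and Sfrp1. The ligand Wnt16, with Wif1, Dkk2 and Tcf7l1, was tested only because of its signal in young injured cord. Higher calls of these genes in young mice, and their part in the counts, are therefore no support. Of the 24 members tested, 17 were higher and 2 were lower in young injured than in young intact cord, and 5 did not pass the test (adjusted p under 0.05, limma with Benjamini-Hochberg adjustment over 10511 genes). This is 79.2% of the members tested, against 68% of all genes tested (33.9% higher and 34.1% lower). In aged mice 11 members were higher, 5 were lower and 8 did not pass the test, which is 66.7%, against 75.5% of all genes tested (35.6% higher and 39.9% lower). The members tested had a median log2 fold change of 0.61 after SCI in young mice and 0.39 in aged mice, where all genes tested had -0.0048 and -0.042. In all, 11 members were higher at both ages, namely Wnt5a, Fzd2, Fzd6, Fzd7, Lrp6, Dkk2, Sfrp4, Wif1, Axin1, Ctnnb1 and Tcf7l2. Frzb and Sfrp1 were lower at both. The summed markers of fibroblasts and meninges, at 2645 to 4166 in intact cord, and of microglia and macrophages, at 1406 to 2535, also lay higher in each injured cord, and their part in these values was not tested.

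Among the ligands, Wnt5a, which acts largely outside the β-catenin branch and repels growing corticospinal axons, was higher after SCI at both ages. Its signals were 84.6, 82.1 and 87.8 in young intact and 149.6, 108 and 111 in young injured cord. In aged mice they were 77.4, 76.3 and 84.6 in intact and 118, 101 and 129 in injured cord. The injured cords thus lay above the intact ones at each age, with a difference of 1.44-fold in young mice (log2 fold change 0.52, SE 0.13, adjusted p = 0.0047 from limma) and of 1.45-fold in aged mice (0.54, SE 0.13, adjusted p = 0.00307). Wnt4, a ligand that attracts commissural axons along the cord during development, had a mean signal of 124 ± 30.6 in young injured and 85.2 ± 4.36 in young intact cord (SD, n = 3 each), and was 1.42-fold higher (adjusted p = 0.028 from limma). The call was lost without young injured replicate 1 (adjusted p = 0.122), and also without young injured replicate 3 or young intact replicates 1 or 3 (0.0526 to 0.0791). It was lost as well with the mean over both probes of Wnt4 (log2 fold change 0.36, adjusted p = 0.0643 from limma). Wnt6, an epithelial ligand, was 1.88-fold higher in young injured cord (adjusted p = 0.00131 from limma). Wnt16 had 71.6, 35.1 and 44.5 in young injured and 16, 25.5 and 11.2 in young intact cord, close to or below the cutoff, with an adjusted p of 0.00887 from limma. In aged mice Wnt4, Wnt6 and Wnt16 did not pass the test (adjusted p of 0.104, 0.349 and 0.205 from limma).

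The receptors tested were 5 Frizzled genes and Lrp6. The largest difference was that of Fzd7, a receptor of the β-catenin branch that stem cells of many tissues use. Its signals were 77.3, 94.3 and 86.2 in young intact, 348, 239 and 273 in young injured, 88.8, 97.9 and 88.1 in aged intact and 453, 297 and 355 in aged injured cord. Every injured cord exceeded every intact cord, with a 3.31-fold higher mean in young mice (log2 fold change 1.73, SE 0.16, adjusted p = 7.19e-06 from limma) and a 3.97-fold higher mean in aged mice (1.99, SE 0.16, adjusted p = 1.92e-06). Lrp6, the co-receptor that recruits Axin to the membrane, had 99.4, 112 and 114 in young intact and 228, 182 and 190.2 in young injured cord. Its signals in aged mice were 104, 97.1 and 95.5 in intact and 180.2, 148 and 158 in injured cord. It was thus 1.84-fold higher after SCI in young mice (adjusted p = 4.04e-05 from limma) and 1.64-fold higher in aged mice (adjusted p = 0.000122 from limma). Fzd2, a close relative of Fzd7, was 2.07-fold higher in young and at least 1.87-fold higher in aged mice. Fzd6, a receptor of the polarity branch, had 103 to 148 in young injured and 136 to 138 in aged injured cord, against 59.3 to 74.3 and 56.9 to 72.7 in intact cord, a difference of 1.77-fold and 2.21-fold. Fzd1, another relative of Fzd7, was 1.52-fold higher in young injured cord (adjusted p = 0.0042 from limma) and had an adjusted p of 0.0542 in aged mice, although the 3 aged injured cords all lay above the 3 aged intact ones. With the mean over both probes of Fzd1 the call in young mice was lost (log2 fold change 0.41, adjusted p = 0.16 from limma). The other probe had means of 13.7 in young injured and 12.6 in young intact cord. Fzd3 was 1.58-fold lower in aged injured than in aged intact cord (adjusted p = 0.00221 from limma), and with the mean over all its probes the log2 fold change was 0.15 (adjusted p = 0.621).

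Among the R-spondins and Znrf3, Rspo3 passed the test of SCI in young mice and Rspo2 in aged mice. Rspo3, made by mesenchymal and endothelial cells, was 1.59-fold higher in young injured than in young intact cord (adjusted p = 0.00579 from limma), with means of 107 ± 18.2 and 66.9 ± 3.58 (SD, n = 3 each). In aged mice it had 70.6 ± 15.5 after SCI and 74.2 ± 9.80 without (SD, n = 3 each; adjusted p = 0.663 from limma). Rspo2 was at least 2.32-fold lower in aged injured than in aged intact cord (log2 fold change -1.98, SE 0.26, adjusted p = 4.74e-05 from limma), and in young mice its difference of -0.31 did not pass the test (adjusted p = 0.302). With the mean over both probes of each gene, the Rspo2 call in aged mice was lost (log2 fold change -0.32, adjusted p = 0.343 from limma) and the value of Rspo3 in young mice turned to -0.48 (adjusted p = 0.514). Znrf3, the ligase that removes Frizzled receptors, had group means of 82.1 to 84.6 and passed in neither comparison.

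The secreted inhibitors divided. Wif1, which binds Wnt proteins directly, was well under the cutoff in intact cord, at 3.4, 6.6 and 7.4 in young and 4.9, 7.5 and 6.1 in aged mice. After SCI it had 66.6, 56.5 and 45 in young and 49.2, 27.1 and 53.5 in aged mice, so that all 6 injured cords lay above all 6 intact cords. With the intact group set to the cutoff of 50, it was at least 1.11-fold higher in young mice (adjusted p = 3.33e-05 from limma), and in aged mice, where both means lay under the cutoff, no fold is given (adjusted p = 8.47e-05). Dkk2, which binds Lrp6, had 3.8 to 10.8 in young and 3 to 8.4 in aged intact cord. Its signals were 60.7, 57.3 and 53.9 in young injured and 42.3, 40.9 and 41.9 in aged injured cord, again without overlap between intact and injured cords (adjusted p = 9.55e-05 in young and 0.000125 in aged mice from limma). Sfrp4, a frizzled-related protein of connective tissue, had 652, 412 and 282 in young and 810.5, 472 and 671 in aged injured cord. The intact cords had 117, 125 and 139 in young and 118, 229.8 and 129.8 in aged mice, and the higher mean after SCI was 3.34-fold in young (adjusted p = 0.000688 from limma) and 4.18-fold in aged mice (adjusted p = 0.000152). Intact and injured cords of the same age did not overlap, although the young injured values spread more than 2-fold.

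Frzb, also named secreted frizzled-related protein 3, went in the opposite direction. It had 109, 122 and 117 in young intact and 104, 122 and 129.6 in aged intact cord. After SCI it had 61, 70 and 54 in young and 42.7, 50.9 and 40.6 in aged mice. Every injured cord was below every intact cord, and the lower mean was 1.89-fold in young mice (log2 fold change -0.92, SE 0.13, adjusted p = 0.000122 from limma) and at least 2.36-fold in aged mice (-1.41, SE 0.13, adjusted p = 4.12e-06). Sfrp1, which binds Wnt proteins and Frizzled receptors, was 1.42-fold lower in young (adjusted p = 0.000937 from limma) and at least 1.64-fold lower in aged mice (adjusted p = 1.52e-05). Dkk3, a divergent Dickkopf protein, was 1.22-fold lower in aged injured cord (adjusted p = 0.0191 from limma), a call that ended without aged intact replicates 1 or 2 or aged injured replicate 1 (0.0585 to 0.0726), and in young mice its adjusted p was 0.0929. The call in aged mice was also lost with the mean over both probes of Dkk3 (log2 fold change -0.11, adjusted p = 0.391 from limma). Its other probe, also above the cutoff, had means of 138 in aged injured and 131 in aged intact cord.

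The promoters of these inhibitors are shown because Wif1 and Dkk2 moved together after SCI and against Frzb, and that of Wnt6 because this ligand differed with age. Each is given from base 200 to base 1 before the annotated start, 5′ to 3′ on the strand of the gene, from RefSeq on the mouse build GRCm38.p6. Frzb lies on the minus strand at chr2:80447397-80447596, Wif1 on the plus strand at chr10:121033804-121034003, Dkk2 on the plus strand at chr3:132085092-132085291 and Wnt6 on the plus strand at chr1:74771692-74771891. Capitals mark the TCF/LEF core CTTTGA, or TCAAAG on the other strand.
Frzb: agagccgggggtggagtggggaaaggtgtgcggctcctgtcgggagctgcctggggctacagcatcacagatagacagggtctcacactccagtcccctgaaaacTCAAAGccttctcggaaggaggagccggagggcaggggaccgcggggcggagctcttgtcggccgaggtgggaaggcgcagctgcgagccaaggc
Wif1: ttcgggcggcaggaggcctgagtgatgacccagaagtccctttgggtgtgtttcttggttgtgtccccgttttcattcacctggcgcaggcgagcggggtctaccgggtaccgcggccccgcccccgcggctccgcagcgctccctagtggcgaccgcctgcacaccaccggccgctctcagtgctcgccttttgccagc
Dkk2: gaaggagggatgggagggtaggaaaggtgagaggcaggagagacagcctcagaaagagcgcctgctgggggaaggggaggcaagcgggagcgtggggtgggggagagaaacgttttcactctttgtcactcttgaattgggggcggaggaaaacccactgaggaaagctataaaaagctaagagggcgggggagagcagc
Wnt6: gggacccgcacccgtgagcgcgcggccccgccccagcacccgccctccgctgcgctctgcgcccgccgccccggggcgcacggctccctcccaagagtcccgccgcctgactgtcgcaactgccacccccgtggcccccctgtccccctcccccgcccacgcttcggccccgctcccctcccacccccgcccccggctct
The core occurred in the Frzb window, with its first base at -95 from the start, and these letters were not in the other windows shown. Windows were at hand for 34 of the 53 members, 42 windows in all, and 6 of these held the core in the 250 bases before the start (14.3%), against 4544 of 32851 windows of all genes (13.8%). Of the members tested, Fzd1 also held it, at -242, among 14 windows.

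**Figure D1:**
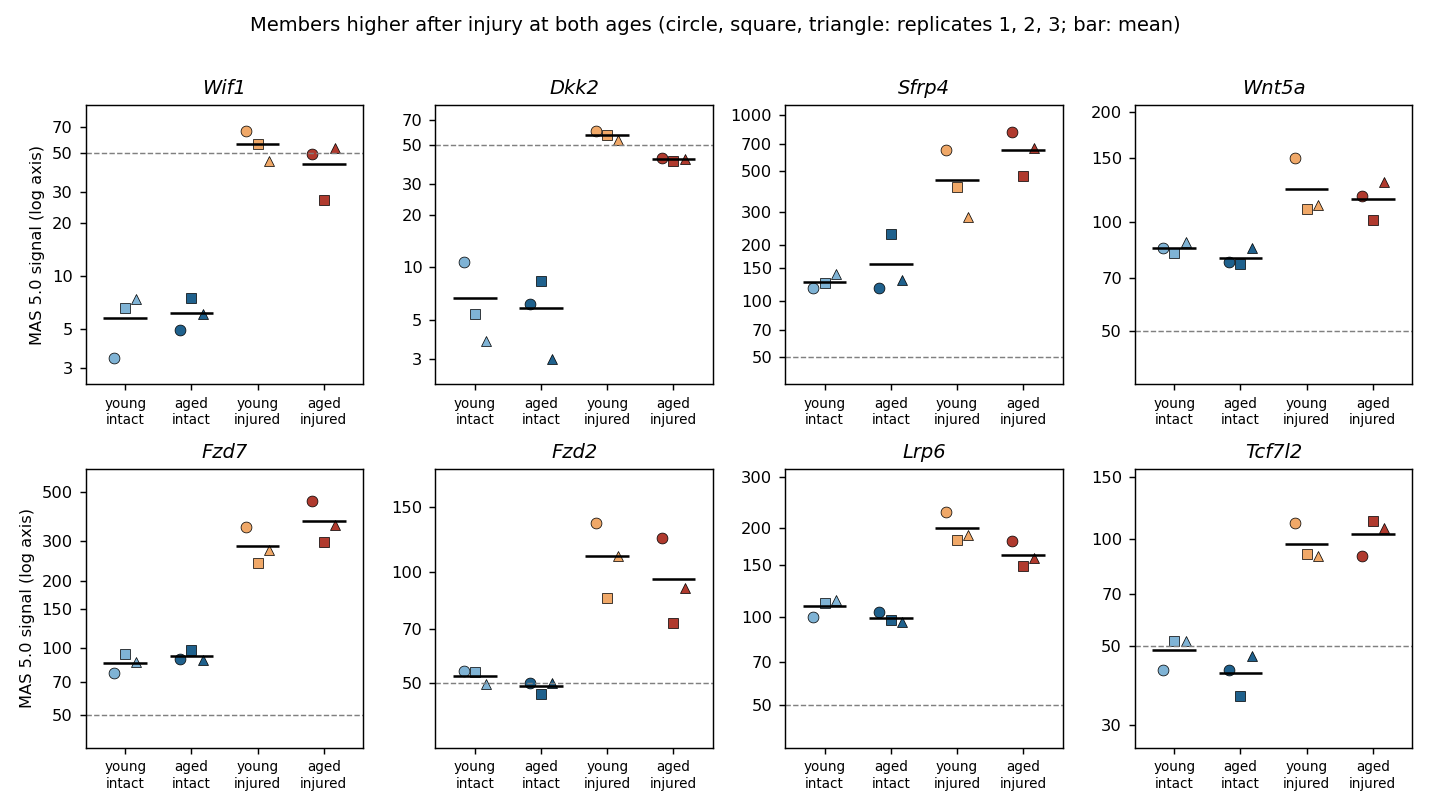
MAS 5.0 signal on a log axis for 8 members that were higher after SCI at both ages, in intact and injured cord of young and aged mice. Points are single mice (circle, square and triangle for replicates 1, 2 and 3), bars are means and the dashed line marks the cutoff of 50. The injured cords lie above the intact cords of the same age in every panel, from values of 3.00 to 10.8 to values of 40.9 to 60.7 for Dkk2.

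Among the intracellular members, Ctnnb1, which encodes β-catenin, was higher after SCI at both ages. It had 3524 ± 313 in young injured and 2563 ± 39.1 in young intact cord, and in aged mice 3583 ± 275 and 2506 ± 118, respectively (SD, n = 3 each). It was 1.37-fold higher in young (adjusted p = 0.000334 from limma) and 1.43-fold higher in aged mice (adjusted p = 0.000104). Tcf7l2, a TCF factor that oligodendrocyte precursors express as they mature, had 90 to 111 in young and 89.8 to 113 in aged injured cord. With the intact groups set to the cutoff, it was at least 1.94-fold higher in young (adjusted p = 0.000136 from limma) and at least 2.06-fold higher in aged mice (adjusted p = 1.42e-05). Axin1, the scaffold of the complex that degrades β-catenin, was 1.52-fold higher in young and 1.35-fold higher in aged mice. With the mean over both of its probes the call in aged mice was lost (log2 fold change 0.23, adjusted p = 0.148 from limma). The other probe had means of 27.8 in aged injured and 26.9 in aged intact cord. Tcf7l1, a TCF factor that mostly represses, was at least 1.32-fold higher in young injured cord (adjusted p = 0.0172 from limma), a call that ended without young injured replicate 1 (0.0712) or young intact replicate 3 (0.0575). In aged mice its means were under the cutoff in both groups (adjusted p = 0.239 from limma). Axin2, a feedback inhibitor that β-catenin itself induces, had group means of 40.4 to 51.3 and passed in neither age (adjusted p of 0.493 in young and 0.0657 in aged mice from limma).

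**Figure D2:**
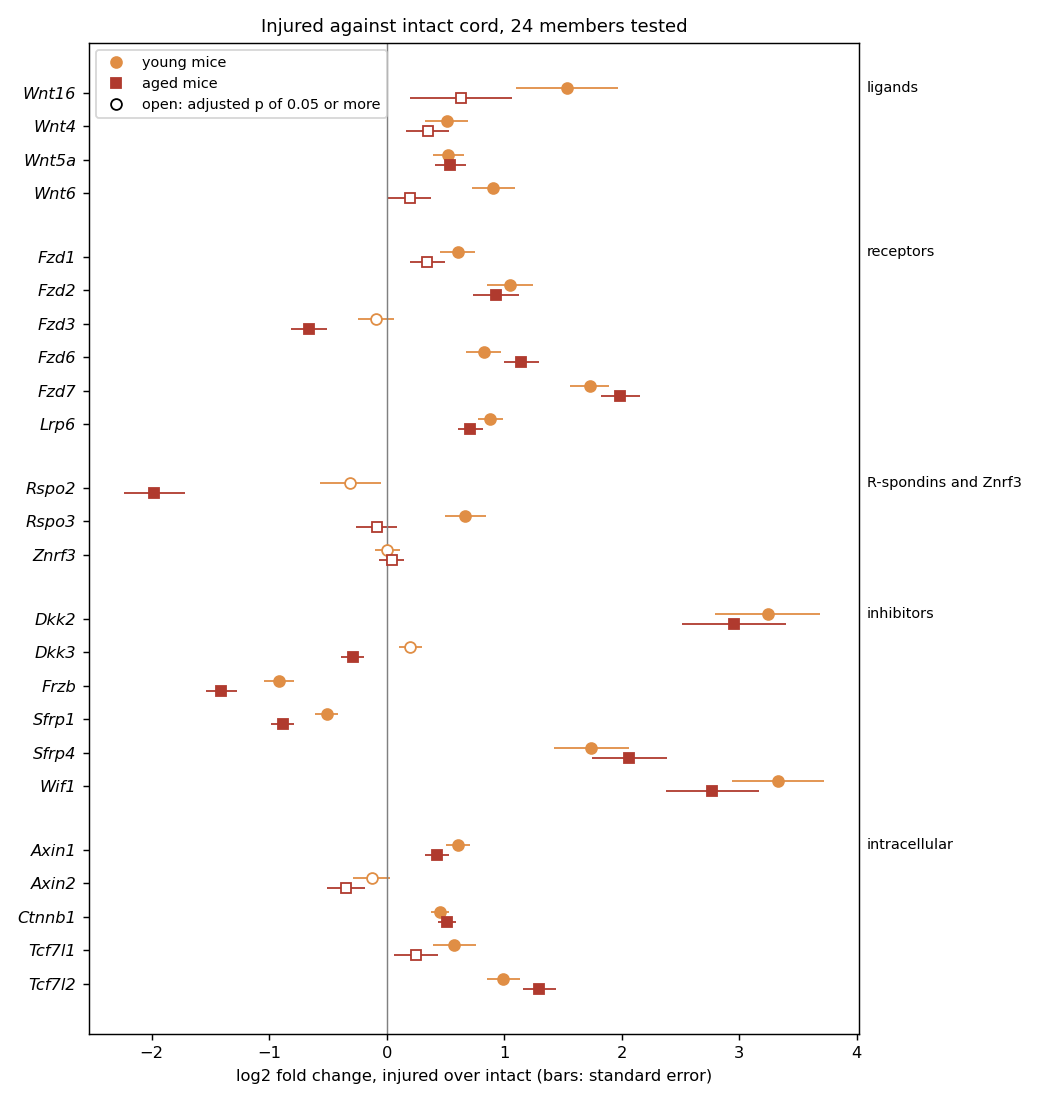
Log2 fold change of injured over intact cord for the 24 members tested, by role, in young mice (circles) and aged mice (squares). Bars are standard errors from limma and open symbols did not pass the test. Most symbols lie right of 0, for example at 0.52 and 0.54 for Wnt5a, 1.73 and 1.99 for Fzd7 and 3.33 and 2.77 for Wif1, whereas Frzb lies at -0.92 and -1.41 and Rspo2 at -0.31 and -1.98.

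In intact cord none of the 24 members tested passed the test between aged and young mice (limma), against 0.809% of all genes tested. An unadjusted p under 0.05 was found for 1073 of the 10511 genes tested and for 2 members. These were Wnt4, with 76.3, 61.7 and 49.6 in aged and 80.7, 89.4 and 85.6 in young mice (log2 fold change -0.47, SE 0.18, adjusted p = 0.385 from limma), and Axin1, with 59.7, 57.1 and 65.7 in aged and 48.8, 53.3 and 50.8 in young mice (0.25, SE 0.10, adjusted p = 0.396). The aged cords lay below the young ones for Wnt4 and above them for Axin1. The other 22 log2 fold changes ran from -0.30 for Tcf7l1 to 0.26 for Sfrp4, and the median over the 24 members was -0.038, against 0.0044 over all genes tested.

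After SCI, Rspo2, Wnt6, Sfrp1 and Fzd3 were lower in aged than in young mice, and no member was higher. These 4 are 16.7% of the 24 members tested, against 8.99% of all genes tested (4.58% lower and 4.41% higher). At an unadjusted p under 0.05 there were 11 members, against 3168 of the 10511 genes tested. The count of lower members was 2 without young injured replicate 1 or 3 and 7 without aged injured replicate 2. Over all genes tested 299, 411 and 3064 passed without these arrays, against 945 with all 12. All 3 aged injured cords lay below all 3 young injured cords for 12 members, against 14.1% of all genes tested, and above them for none, against 14%. The median log2 fold change was -0.36 over the members and -0.043 over all genes tested. This comparison uses the same injured arrays as those of injury within each age. When only the 6 injured arrays were fitted, no gene of the 10511 passed the test, the adjusted p of the 4 members being 0.139 to 0.189.

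Rspo2, which amplifies Wnt signals through Lgr receptors, had the largest log2 fold change of the 4. It had signals of 110.4, 106 and 112 in intact and 98.8, 121 and 57.3 in injured cord of young mice, and of 142, 105 and 105 in intact and 23.8, 38.6 and 27.7 in injured cord of aged mice. The aged injured cords alone lay under the cutoff, and the nearest young injured cord, at 57.3, was well below its group. With the aged group set to the cutoff, Rspo2 was at least 1.76-fold lower in aged mice (log2 fold change -1.58, SE 0.26, adjusted p = 0.00993 from limma). The call held when any of the 12 arrays was left out (highest adjusted p 0.0398), and the log2 fold change was -1.43 without aged injured replicate 1. It did not hold for the mean over both probes of the gene (adjusted p = 0.155), the other probe having group means of 4.13 to 10.9. Its difference between the ages in the effect of SCI was -1.67 on the log2 scale (SE 0.37, adjusted p = 0.0871 from limma) and did not pass the test.

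Wnt6 had higher signals after SCI in young mice, at 117, 77 and 98.6, than in aged mice, at 55.6, 43.4 and 53.8. The intact cords had 47.5, 59.7 and 47.4 in young and 52.2, 37.7 and 43.9 in aged mice, so that the aged injured cords lay near the level of intact cord. Wnt6 was 1.90-fold lower in aged than in young injured cord (log2 fold change -0.92, SE 0.18, adjusted p = 0.018 from limma). The call was lost without young injured replicate 1 (adjusted p = 0.0574) or 3 (0.0505). The other ligands had the same sign, with -0.93 for Wnt16 (adjusted p = 0.175 from limma), -0.63 for Wnt4 (0.0548) and -0.079 for Wnt5a (0.69). Wnt16 was tested only because of its mean of 50.4 in young injured cord, against 25.9 in aged injured cord. The cutoff favours this sign for Wnt16, which is therefore no support.

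Fzd3, a receptor of the polarity branch through which Wnt signals guide axons along the cord, had 487, 477 and 432 in young injured and 225, 384 and 323 in aged injured cord. In intact cord it had 470.2, 497 and 520.1 in young and 465, 506 and 473 in aged mice, so that the aged injured cords stood below the other 9. It was 1.53-fold lower in aged than in young injured cord (log2 fold change -0.62, SE 0.15, adjusted p = 0.0349 from limma). The lowest value was that of aged injured replicate 1, and without this array the log2 fold change was -0.40 (adjusted p = 0.0248). The call ended when any array other than aged injured replicates 1 and 2 was left out (0.0519 to 0.0964). It was also lost with the mean over all probes (log2 fold change -0.18, adjusted p = 0.684 from limma), the other 5 probes of the gene having group means of at most 31.6. Fzd7 and Fzd6, which had risen after SCI, had aged over young values of 0.36 (adjusted p = 0.171 from limma) and 0.20 (0.359), and Lrp6 had -0.30 (0.0933).

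Sfrp1 had 57.8, 65.9 and 64.2 in young injured and 44.2, 47.8 and 41.3 in aged injured cord, against 88.3, 92.5 and 86.5 in young and 77, 81.6 and 87.4 in aged intact cord. The groups did not overlap after SCI. With the aged group set to the cutoff it was at least 1.25-fold lower in aged mice (log2 fold change -0.50, SE 0.098, adjusted p = 0.0177 from limma), and the call ended without young injured replicate 2 (0.0566). The other 4 probes of Sfrp1 also had a lower mean in aged than in young injured cord. A further 5 members missed the threshold narrowly, all with lower values in each aged injured cord than in any young one: Frzb (-0.46, adjusted p = 0.0504 from limma), Dkk3 (-0.35, 0.0504), Rspo3 (-0.61, 0.0515), Wnt4 (-0.63, 0.0548) and Tcf7l1 (-0.62, 0.0584). In the other settings that left out no array, the highest adjusted p of these 5 ran from 0.175 for Wnt4 to 0.495 for Tcf7l1 (limma). Each of them passed in 1 or 2 of those settings. Tcf7l1 was tested only because of its signal in young injured cord, which favours a lower value in aged mice. Its other probe had means of 38.8 in aged and 42.1 in young injured cord. Wnt4 had -0.47 in intact cord (adjusted p = 0.385 from limma). Its difference between the ages in the effect of SCI was -0.16 (adjusted p = 0.756 from limma). Rspo3 passed without aged injured replicate 1 (log2 fold change -0.76, adjusted p = 0.0248), which brings the count of lower members to 5. Ctnnb1, Axin1, Axin2, Tcf7l2 and Znrf3 had log2 fold changes of -0.10 to 0.089 between aged and young injured cord.

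**Figure D3:**
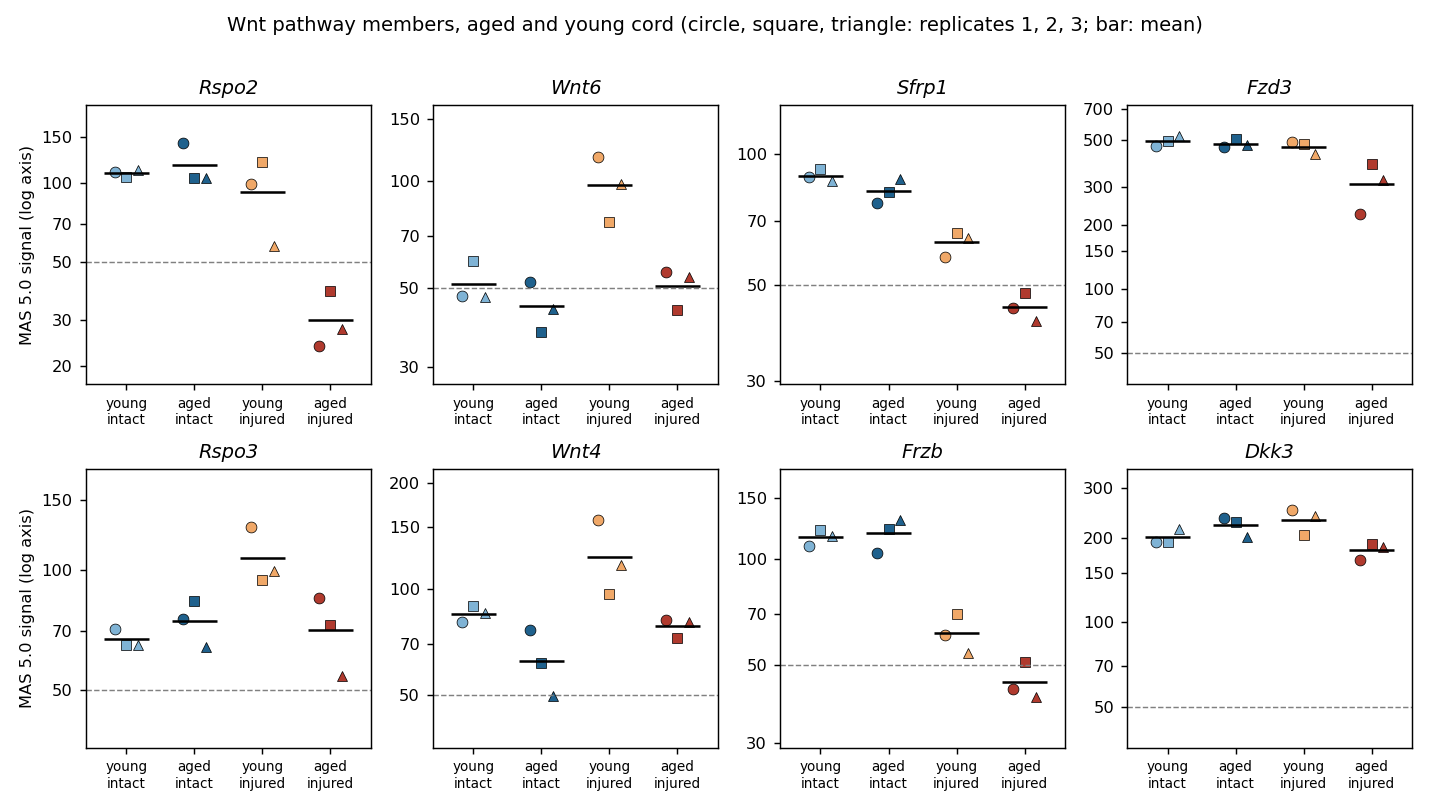
MAS 5.0 signal on a log axis for Rspo2, Wnt6, Sfrp1 and Fzd3 (top), the members that passed the test between aged and young injured cord, and for Rspo3, Wnt4, Frzb and Dkk3 (bottom), which did not. Points are single mice (circle, square and triangle for replicates 1, 2 and 3), bars are means and the dashed line marks the cutoff of 50. Aged injured cords lie below the young injured ones in every panel, for Rspo2 at 23.8 to 38.6 against 57.3 to 121.

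Markers of other kinds of cells also differed between aged and young injured cord, where 8.99% of all genes tested passed and 3168 of 10511 had an unadjusted p under 0.05. Of the 6 astrocyte markers tested, 3 were lower in aged than in young injured cord and none was higher (median log2 fold change -0.54). The 6 neuronal markers tested had a median of -0.99 and none passed the test (limma; 0 at an unadjusted p under 0.05), with the sums given above overlapping between the ages. Of the 4 markers of cycling cells tested, 3 were higher in aged injured cord, with summed signals of 2241 to 3933 against 1537 to 1861 in young mice. The 5 oligodendrocyte markers tested had negative log2 fold changes (median -0.41), and none passed the test, although 4 had an unadjusted p under 0.05. Of 2 Schwann cell markers tested 1 was lower (-1.59), and of 6 markers of microglia and macrophages 2 were higher. The 7 markers of fibroblasts and meninges had a median of -0.073 and none passed (0 at an unadjusted p under 0.05), and T cell markers were under the cutoff in every group. Some markers also differed with age in intact cord, where 0.809% of all genes tested passed. There 4 of the 6 markers of microglia and macrophages were higher and 0 lower in aged mice (median 0.80, against 0.15 after SCI). Of the 7 markers of fibroblasts and meninges, 3 were lower and 0 higher in aged intact cord. The part of these cell types in the values of Rspo2, Wnt6, Sfrp1 and Fzd3 was not tested.

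**Figure D4:**
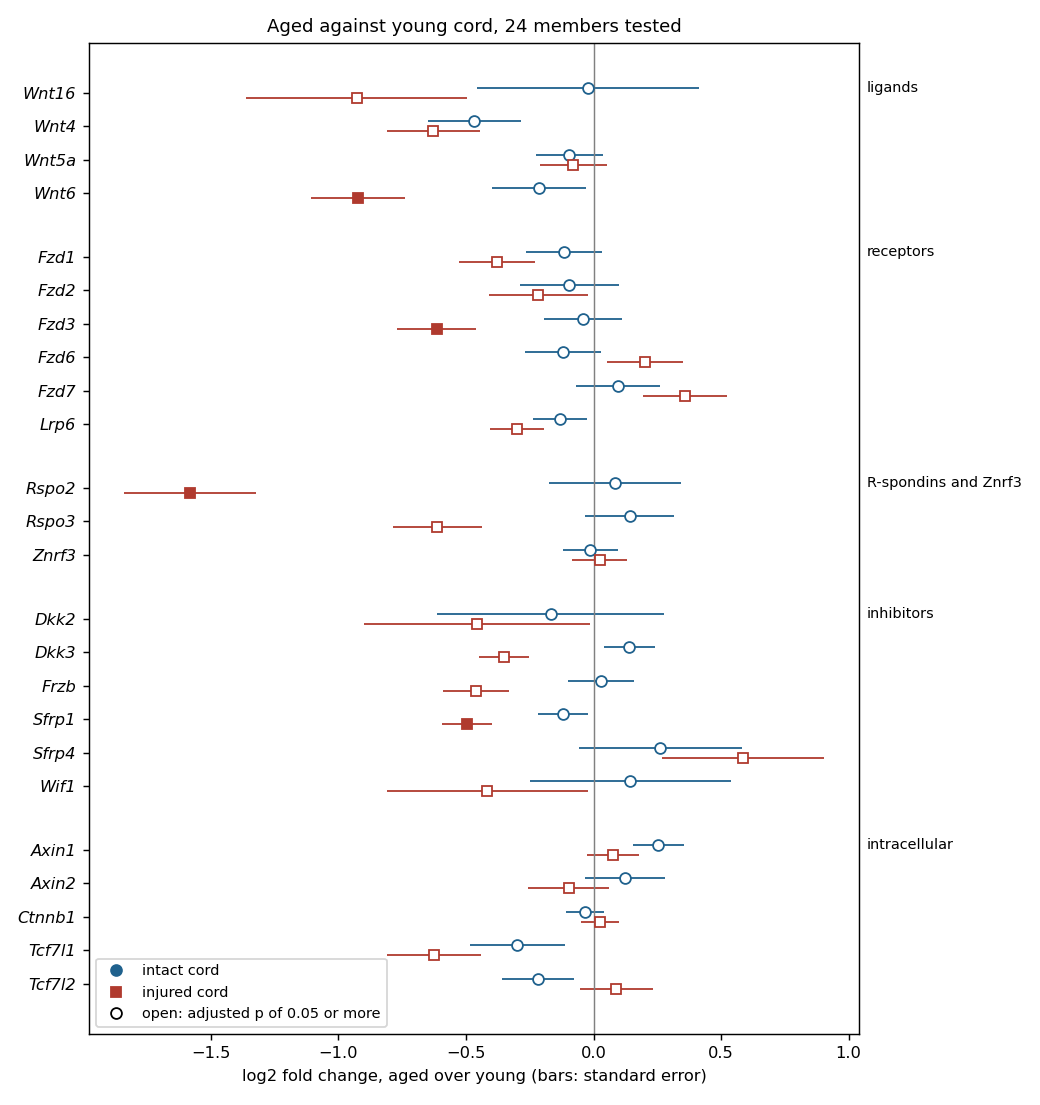
Log2 fold change of aged over young cord for the 24 members tested, by role, in intact cord (circles) and injured cord (squares). Bars are standard errors from limma and filled symbols passed the test. In intact cord the values lie between -0.47 and 0.26 and all are open, and after SCI 17 of 24 lie left of 0, down to -1.58 for Rspo2. Among the 17 are Wnt16, Tcf7l1, Dkk2 and Wif1, tested only because of their signal in young injured cord.

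The effect of SCI was compared directly between the ages by the interaction of age and injury. No member passed this test (limma), against 0.438% of all genes tested. An unadjusted p under 0.05 was found for 1708 of the 10511 genes tested and for 7 members. They were Rspo2, Rspo3 (-0.76, adjusted p = 0.182 from limma), Wnt6 (-0.71, 0.223), Fzd3 (-0.57, 0.233), Frzb (-0.49, 0.228), Dkk3 (-0.49, 0.145) and Sfrp1 (-0.37, 0.228). All of these log2 values were negative, meaning a lower value after SCI, relative to intact cord, in aged than in young mice. A member that passed in the comparison of SCI at one age and not at the other, such as Wnt4, Wnt6, Rspo3 or Rspo2, is therefore not shown to differ between the ages.

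Other genes of the pathway were read from 3 lists, of secretion and the cell surface, of the inside of the cell and of the planar polarity branch. The list named for planar polarity also held Camk2a, Camk2b, Nfatc1 and Nlk, which are not genes of that branch. Of the 54 of 73 genes in the 3 lists that could be tested, 17 were higher and 19 lower after SCI in young mice (66.7%, against 68% of all genes tested), and 14 were higher and 23 lower in aged mice (68.5%, against 75.5%). Wls, which carries Wnt proteins to the surface, had 905 ± 13.8 in young injured and 394 ± 26.8 in young intact cord (SD, n = 3 each), and was 2.30-fold higher in young and 2.08-fold higher in aged mice (adjusted p of 2.51e-06 and 4.49e-06 from limma). Sulf1, a sulfatase that frees Wnt proteins from heparan sulfate, was 2.46-fold and 2.08-fold higher, and Nfatc1, a calcium-dependent transcription factor, was at least 2.29-fold and at least 2.46-fold higher. Lgr5, a receptor for R-spondins, was at least 2.21-fold lower in young and at least 2.10-fold lower in aged mice. Btrc, which marks β-catenin for degradation, was 3.09-fold and 4.32-fold lower, and Camk2b, a calcium-dependent kinase abundant in neurons, was 3.35-fold and at least 5.99-fold lower.

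Between aged and young injured cord, 5 of these 54 genes were lower and none was higher (9.26%, against 8.99% of all genes tested). Porcn, the acyltransferase that adds the lipid to Wnt proteins, had 35.2 ± 10.6 in aged and 57.7 ± 6.12 in young injured cord (SD, n = 3 each; log2 fold change -0.76, SE 0.20, adjusted p = 0.0419 from limma). Daam1 and Daam2, formins that link Dishevelled to the cytoskeleton, were 1.49-fold and 1.58-fold lower (adjusted p of 0.038 and 0.0217 from limma). Tle1, a co-repressor of TCF factors, was 1.47-fold lower (adjusted p = 0.0295 from limma). Nkd1, a feedback inhibitor that is also a target, had group means under the cutoff in both, at 27.9 ± 3.87 (SD, n = 3) in aged and 46.8 ± 3.36 (SD, n = 3) in young mice (adjusted p = 0.0315 from limma). None of the 54 passed between the ages in intact cord or in the interaction (limma; 6 and 7 at an unadjusted p under 0.05). Of the 10511 genes tested, 1073 and 1708 had an unadjusted p under 0.05 in these comparisons.

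Known target genes of the pathway did not move in one direction. Of the 12 of 19 that could be tested, 7 were higher and 1 lower after SCI in young mice (66.7%, against 68% of all genes tested), and 7 higher and 3 lower in aged mice (83.3%, against 75.5%). Cd44, a hyaluronan receptor, was 4.94-fold higher in young and 5.73-fold higher in aged mice (adjusted p of 2.5e-07 and 1.1e-07 from limma). Between aged and young injured cord, Ccnd1 and Id2 were higher and Bmp4, Tnfrsf19 and Nkd1 were lower, which is 41.7% of the 12, against 8.99% of all genes tested. Ccnd1, which encodes cyclin D1 and is induced by many growth signals, had 975 ± 157 in aged and 483 ± 31.4 in young injured cord (SD, n = 3 each; log2 fold change 1.00, SE 0.12, adjusted p = 0.0028 from limma). Id2, an inhibitor of differentiation factors, was 1.28-fold higher in aged mice (adjusted p = 0.0436 from limma). Bmp4, a ligand of the BMP pathway, was 1.81-fold lower (adjusted p = 0.0104 from limma), and Tnfrsf19, a receptor of the TNF family, was 1.33-fold lower (adjusted p = 0.0392 from limma). None of the 12 passed in intact cord (limma; 1 at an unadjusted p under 0.05) or in the interaction (4 at an unadjusted p under 0.05). Over all 10511 genes tested these counts were 1073 and 1708.

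**Figure D5:**
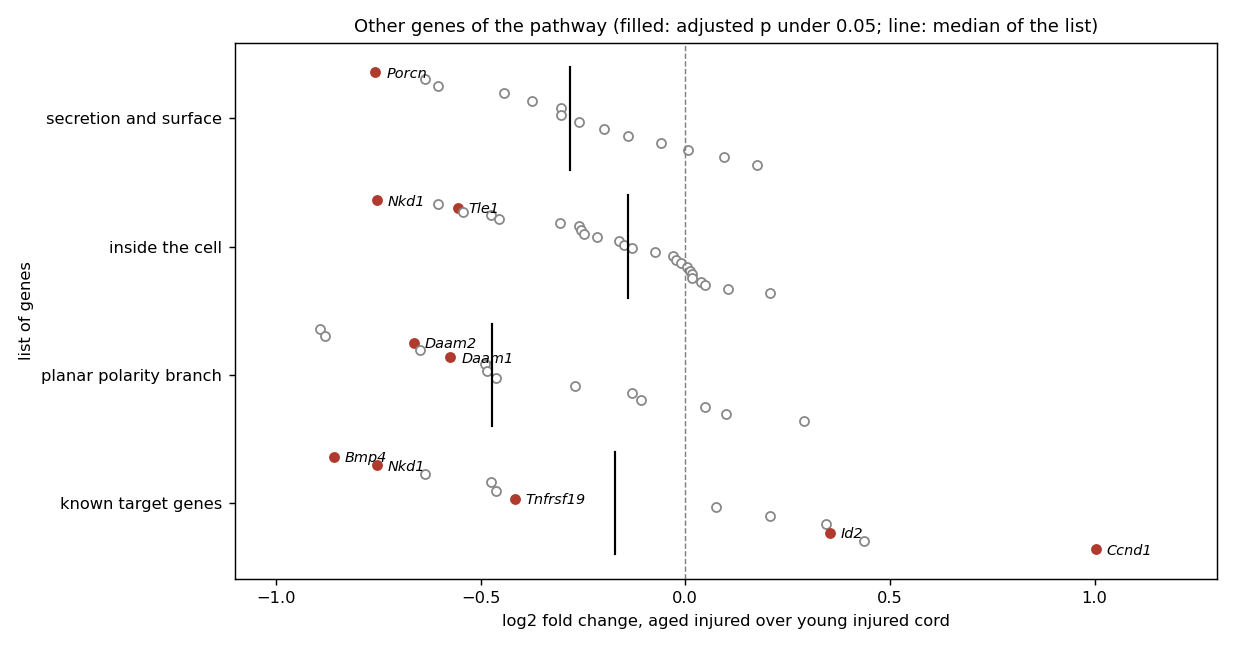
Log2 fold change of aged over young injured cord for the tested genes of 3 lists of other pathway genes and of the list of known target genes. Each point is a gene, filled where the adjusted p from limma was under 0.05, and vertical lines are list medians. The medians lie at -0.28, -0.14, -0.47 and -0.17, and Ccnd1 at 1.00 lies farthest to the right.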

How the data were processed

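RNA from 12 Th9 segments of spinal cord was hybridized by the authors to Affymetrix whole-genome mouse arrays, 1 per mouse. The deposited values are signal intensities on a linear scale, which the authors computed by MAS 5.0, a method that subtracts background and brings arrays to a shared scale. Every array had a trimmed mean of 100 (2% trimmed at each end). The platform annotation, which can be old, gave 1 gene for 34958 of 45101 probes, several for 932 and no gene for 9211. The 53 members had 104 probes.

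Genes whose group mean exceeded 50 in 1 group or more (10511) were kept, and their log2 signals were fitted with limma 3.58.1 in R 4.3.3 (1 mean per group, all 12 arrays, variance trend). P-values were adjusted over these genes by Benjamini-Hochberg, and a gene was called under 0.05. The fit was tested on simulated data with 1 spread per gene shared by all groups. That simulation cannot tell how the fit behaves where injured cords spread more than intact ones. Folds against a group mean under 50 were lower bounds ("at least"), computed with 50 in place of that mean, and log2 values fitted for such genes should not be read as folds. The members, the gene lists and the tests were chosen with earlier results of these data known. Named were all members, pathway genes called between the ages, and leading calls after SCI by mean log2 fold change over both ages. Replicates were separate mice per the labels. The number of arrays limits the precision, and arrays give no read depth.

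Alternatives were fitting only the arrays compared, quantile normalization, no cutoff or one of 100, an offset of 16 before log2, no variance trend, the mean over all probes of a gene, a replicate block, leaving out each array, and the cutoffs of the study on signal (50) and ratio (2).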

Additional observations from a re-analysis of the deposited data

How the results depend on the processing

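Under the other settings the calls after SCI of Fzd2, Fzd6, Fzd7, Lrp6, Sfrp4, Wif1, Dkk2, Wnt5a, Ctnnb1, Tcf7l2, Frzb and Sfrp1 kept their direction and stayed under 0.05 at both ages in every fit that tested them. For called members as a whole, 8 of the refitted values after SCI in young mice and 6 in aged mice kept their direction but no longer passed. With a cutoff of 100, 11 members were higher and 1 was lower in young injured cord, as fewer genes are tested. By the cutoffs of the study, which use no spread between mice, 6 were higher and 0 lower in young mice, 4 higher and 2 lower in aged mice, and 1 (Rspo2) fell below young injured cord in aged mice. With the mean over all probes of a gene, 2 members were lower in aged injured than in aged intact cord and 2 against young injured cord, and the sign of 2 members turned: Fzd3 in aged mice had a log2 fold change of 0.15 after SCI and Rspo3 in young mice one of -0.48 (adjusted p of 0.621 and 0.514 from limma). The further probes of both genes were dim in every group. Between aged and young injured cord, 0 members were lower when only the injured arrays were fitted, 8 with an offset of 16, and 7 with the replicate block. Over all genes tested 0, 1221 and 1042 passed in these settings. The labels give same-numbered mice nothing in common but the number. Their deviations from the group means correlated at -0.113 to 0.667 over all pairs of groups (median 0.021), and between young and aged injured cord at 0.595, 0.667 and 0.015 for numbers 1, 2 and 3, against at most 0.323 for other numbers. Young injured replicate 3 correlated more with aged injured replicate 1 (0.141) than with replicate 3.

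With 1 array left out, the members higher after SCI numbered 15 to 18 in young and 11 to 12 in aged mice, and those lower 2 in young and 4 to 6 in aged mice. Between aged and young injured cord 2 to 7 were lower and 0 to 1 higher, while the count over all 10511 genes ran from 291 to 3064. The count of lower members was 2 without young injured replicate 1 or 3, and it was 7, with Fzd7 higher, without aged injured replicate 2. Over all genes tested 299, 411 and 3064 passed without these arrays, against 945 with all arrays. In intact cord the count of members was 0 throughout. In the interaction 0 to 2 members were lower, namely Rspo2 without young injured replicate 3, and Rspo2 and Fzd3 without aged injured replicate 2. Over all genes tested 16 and 531 passed there, against 46 with all arrays. The 3 mice per group limit the size of difference that can be called, and members under the cutoff were too dim to be followed. Without a cutoff, Lrp5, Sfrp5 and Wnt5b passed as higher and Wnt7a as lower after SCI in young mice. In aged mice Lrp5 and Wnt2 passed as higher, and Fzd9 and Sfrp2 as lower.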
